A study of Homo sapiens with 2 samples.

Results

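The genes described here encode the subunits of the proteasome and its activators, inhibitor and assembly factors. They were chosen by name, as every transcript probe on the array whose gene name starts with PSMA to PSMG followed by a digit. The rule gave 62 probes of 44 gene names, out of 30982 gene names on the array, and 54 probes of 40 genes were well above background on both arrays and are called measured here; probes below that mark are called dim. PSMC3IP matched the rule by its name only and encodes no subunit.

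Expression was measured on 2 one-color oligonucleotide arrays, each hybridized with RNA from 1 culture of Y79 cells, an established line of human retinoblastoma origin grown in suspension. The control culture was untreated, and the other was harvested 48 h after transfection with an siRNA against the gene of the epithelial cell adhesion molecule Ep-CAM (EpCAM siRNA, target TACSTD1). By the study's text, both cultures had first been exposed to the demethylating agent 5′-azacytidine, which the labels do not mention. No array of scrambled siRNA was analysed here, so transfection and silencing cannot be told apart. With 1 array per condition, every value below compares these 2 arrays, no test was possible, and the differences have no replicate check.

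The proteasome is the large protease that breaks down proteins tagged with ubiquitin in the nucleus and cytoplasm. Its barrel-shaped core holds outer rings of alpha subunits and inner rings of beta subunits, of which PSMB5, PSMB6 and PSMB7 cut the substrate. A regulatory particle caps the core: its base holds ATPases (PSMC genes) that unfold the substrate and thread it in, and its lid holds the enzyme that removes ubiquitin. In cells exposed to interferon gamma, PSMB8, PSMB9 and PSMB10 take the place of the catalytic subunits to form the immunoproteasome, which shapes peptides for antigen presentation.

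The probes of the catalytic subunits and of their immune replacements are shown first, because they are the pairs that can exchange within the core. Each is the 60-base oligonucleotide on the array, 5′ to 3′, with the position of its target on hg17.
PSMB5, chr14:22565325-22565384, minus strand: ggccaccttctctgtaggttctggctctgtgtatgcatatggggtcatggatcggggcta
PSMB6, chr17:4648362-4648547, plus strand: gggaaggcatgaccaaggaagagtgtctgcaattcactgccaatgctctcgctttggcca
PSMB7, chr9:124195445-124195504, minus strand: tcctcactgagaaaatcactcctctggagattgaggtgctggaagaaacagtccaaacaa
PSMB8, chr6:32918001-32918468, minus strand: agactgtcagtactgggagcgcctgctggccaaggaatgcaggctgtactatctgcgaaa
PSMB9, chr6:32931896-32931955, plus strand: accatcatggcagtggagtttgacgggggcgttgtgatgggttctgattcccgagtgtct
PSMB10, chr16:66526048-66526232, minus strand: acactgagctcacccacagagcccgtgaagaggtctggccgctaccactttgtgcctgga

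All 6 probes have a reading frame without a stop over their 60 bases. The targets of PSMB6, PSMB8 and PSMB10 span more than 60 bases of the genome, as they do for 21 of the 62 probes. GC content over the measured proteasome probes had a median of 44.2% (range 28.3% to 60%), beside 45.0% over all measured probes.

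Processed signal, the background-subtracted brightness of a spot in arbitrary units, served as the level. Each array was divided by the 50th percentile of its transcript probes (48.8 without and 50.0 with the siRNA), and the log2 ratio is siRNA-treated over untreated. Over the 194 measured probes printed several times per array, the spots of a probe differed by an SD of 0.14 in log2 ratio (the median over probes, called the technical SD here). All proteasome probes were printed once, and none was saturated or marked as an outlier. The scanner software gives an error of the signal on each array. An error of the log2 ratio (called the software error here) was worked out as the root of the summed squares of both relative errors. It was 0.20 to 0.38 over the measured proteasome probes. That SD and that error cover the spots of these arrays and say nothing about the spread between cultures. Of the 43376 transcript spots, 70.4% (untreated) and 68.0% (siRNA-treated) were well above background. The Ep-CAM probe, at 15.6 and 11.96, was dim on both arrays, so the silencing that the label names could not be checked here. Of 8 photoreceptor lineage genes on the array, CRX, OTX2, ARR3 and GUCA1A were well above background and NRL, RCV1, NEUROD1 and PDE6H were not. The summed signal of the photoreceptor markers was 328 without and 296 with the siRNA. Genes of glia, fibroblasts, leukocytes and pigment epithelium were also above background (4 of 4, 4 of 4, 4 of 4 and 2 of 3). Their summed signals on the untreated and siRNA-treated arrays were 403 and 434 for glia, 480 and 415 for fibroblasts, 2059 and 2075 for leukocytes, and 370 and 413 for pigment epithelium. Their part in the proteasome values was not tested.

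Most proteasome probes were lower on the siRNA-treated array, by small amounts. The median log2 ratio over the 54 measured probes was -0.22 (range -0.89 to 0.24), beside -0.03 over all 26976 measured probes. Below 0 were 42 of the 54 probes (77.8%), beside 55.2% of all measured probes. Quantile normalization, which gives both arrays the same distribution of signals, left 34 of 54 (63.0%) below 0 with a median of -0.07. Of all measured probes, 48.6% were below 0 under that setting, with a median of 0.007. By gene, all measured probes lay below 0 for 29 genes and above 0 for 9, and PSMD1 and PSMD3 had probes on both sides. Relative to the technical SD, 35 probes were lower by more than it, 4 were higher by more than it, and 15 lay within it. The share of all measured probes past it was not counted, but their quartiles were -0.19 and 0.12, so the lower quartile is past it too. The software error had a median of 0.21 and was 0.20 at the lowest, above this SD. It is thus larger than the SD for every measured proteasome probe and does not set any of them apart.

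No proteasome probe reached a ratio of 2.0 (0.793% of all measured probes did) or 0.5 (0.801%). At the wider cutoffs of the series text, none was above 1.5 (2.91% of all), and 1 probe, of the activator gene PSME3, was below 0.55 (1.5% of all). A milder cutoff of -0.5 on the log2 scale, chosen after the values were seen, held 13 of 54 probes (24.1%), beside 6.77% of all measured probes. These were probes of PSMA3, PSMA4, PSMA7, PSMB2, PSMB3, PSMB7, PSMC1, PSMC3, PSMC4, PSMC6, PSMD12, PSMD14 and PSME3. Under normexp background correction with an offset of 50, which moved the median of all measured probes to -0.20, 14 proteasome probes were at a ratio of 0.5 or less and 18 below 0.55, and the medians of the subunit groups lay between -0.89 and -0.28. The share of all measured probes past these ratios under normexp was not counted. That fit included 1 spot dimmer than its local background. Fitted without it (the refitted normexp), 0 proteasome probes were at 0.5 or less and 0 below 0.55. The proteasome median was then -0.18, beside -0.02 over all measured probes. The 13 probes at or below -0.5 comprise 6 of the constitutive core, 4 ATPases, 2 of the lid and 1 activator.

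**Figure D1:**
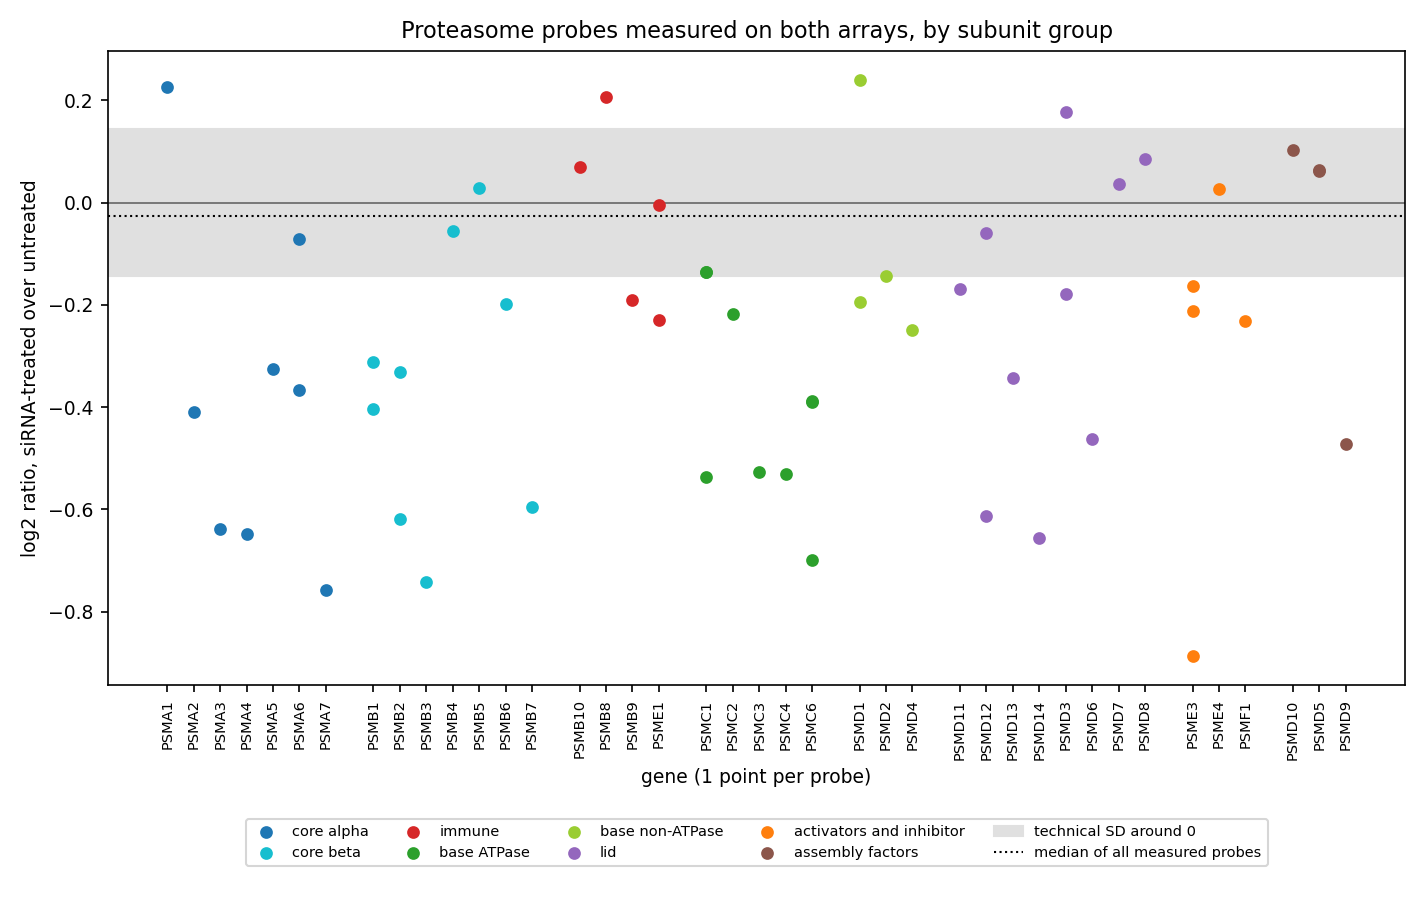
Log2 ratio (siRNA-treated over untreated) of each of the 54 measured proteasome probes, 1 point per probe, by gene and coloured by subunit group; the gray band is the technical SD of 0.14 around 0 and the dotted line the median of all measured probes (-0.03). The core alpha, core beta and ATPase points lie mostly below the band, while the immune, base non-ATPase, lid and assembly points lie on both sides of 0.

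The median log2 ratio was lowest among the brightest probes, over all probes and within the proteasome. Among the 2155 measured probes with a mean signal of 1000 or more, the median log2 ratio was -0.24 (quartiles -0.49 and -0.03) and 78.3% were below 0. All 20 proteasome probes in that band were below 0, with a median of -0.40. Of these, 6 were at or below -0.5 (30.0%), beside 23.9% of all bright probes. The technical SD over the 20 repeated probes of that band was 0.085.

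Between 100 and 1000, the median was -0.02 over 11568 probes and -0.15 over 20 proteasome probes, of which 13 were below 0 (65.0%, beside 55%). In that band 7 proteasome probes were at or below -0.5 (35.0%), beside 6.12% of all. Under 100, the median was -0.01 over 13253 probes and -0.06 over 14 proteasome probes, of which 9 were below 0 (64.3%, beside 51.6%) and 0 at or below -0.5 (4.54% of all). Subtracting a lowess curve of the log2 ratio on signal, drawn through all measured probes, left a proteasome median of -0.11, with 36 probes below the curve and 18 above it. Below the curve were thus 66.7% of the proteasome probes, beside 49.2% of all measured probes. That correction was chosen after the data were seen, and whether brightness accounts for the lower proteasome values was not tested.

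**Figure D2:**
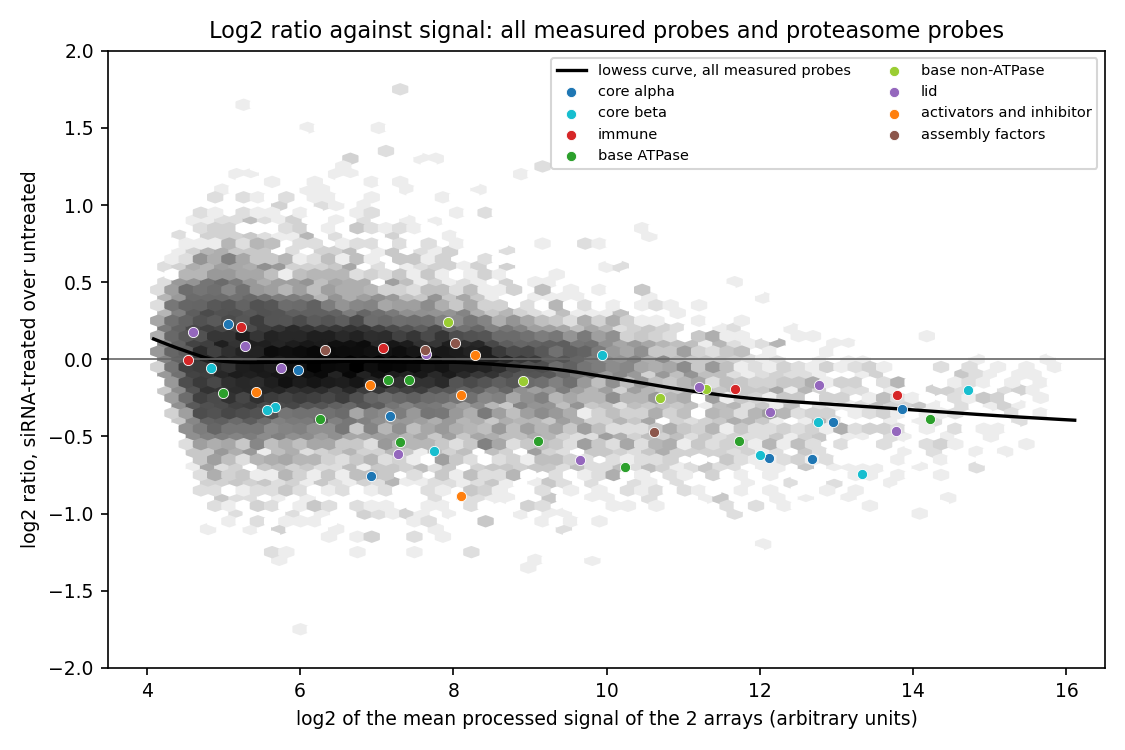
Log2 ratio (siRNA-treated over untreated) against log2 of the mean processed signal of both arrays for all 26976 measured probes (gray density, darker where there are more probes), with the lowess curve through them (black) and the 54 proteasome probes coloured by subunit group. The curve drops at high signal, where the median of all probes is -0.24 and that of the proteasome probes -0.40, and 36 proteasome points lie below it.

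The alpha subunits, which form the outer rings and the gate of the core, were lower on the siRNA-treated array for 7 of 8 measured probes, with a median log2 ratio of -0.39 and a median of -0.23 relative to the signal curve. PSMA7 gave 156 without and 94.5 with the siRNA (log2 ratio -0.76), the lowest of the alpha subunits. PSMA4 gave 8153 and 5331 (-0.65). PSMA3 gave 5505 and 3625 (-0.64). All of these were lower by more than the technical SD, with PSMA7 in the middle brightness band and the others in the top one. PSMA2 gave 9003 and 6947 (-0.41), and PSMA5 gave 16351 and 13376 (-0.32). The value of PSMA5 lay on the signal curve, at a difference from it of -0.0015, and was 0.03 under quantile normalization. PSMA6 had a probe at 163 and 129 (-0.37) and a fainter one at 63.4 and 61.8 (-0.07), which share 35 bases. PSMA1, at 30.5 and 36.5, was the alpha subunit with the highest ratio (0.23). PSMA8, a form of the alpha ring known from testis, was dim on both arrays.

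The constitutive beta subunits, which form the inner rings, were lower for 8 of 9 measured probes, with a median of -0.33. That median was -0.78 under normexp with an offset of 50 and -0.19 when normexp was refitted with 1 spot left out whose local background outshone it. PSMB3, a subunit without proteolytic activity, gave 13202 without and 8091 with the siRNA (log2 ratio -0.74). PSMB2 gave 5037 and 3362 on its brighter probe (-0.62) and 52.5 and 42.7 on the other (-0.33). PSMB1 gave 7896 and 6111 (-0.40) and 55.9 and 46.2 (-0.31). For both genes the probes lay on the same side of 0 in different brightness bands. PSMB4 was close to 0, at 28.8 and 28.4 (-0.06).

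The catalytic subunits, whose probes are printed above, differed among themselves. PSMB7, which carries the trypsin-like activity, gave 260 without and 177 with the siRNA (log2 ratio -0.60). PSMB6, with the caspase-like activity, gave 28466 and 25427 (-0.20). PSMB5, with the chymotrypsin-like activity and the target of clinical proteasome inhibitors, gave 961 and 1005 (0.03). PSMB5 thus lay within the technical SD, PSMB6 was lower by slightly more than it, and PSMB7 was about as far below 0 as PSMB2. Relative to the signal curve PSMB5 stood at 0.14, PSMB6 at 0.16 and PSMB7 at -0.57, so the sign of PSMB6 changed with that correction, as it did under quantile normalization.

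The immune subunits and the interferon-inducible activator lay around 0, with a median log2 ratio of -0.0043 over 5 measured probes that turned to 0.12 under quantile normalization and to -0.28 under normexp background correction with an offset of 50. PSMB8, which replaces PSMB5, gave 34.6 without and 40.9 with the siRNA (log2 ratio 0.21). PSMB10, which replaces PSMB7, gave 131 and 141 (0.07), and PSMB9, which replaces PSMB6, gave 3438 and 3087 (-0.19). PSMB8 was thus higher by more than the technical SD, PSMB10 lay within it, and PSMB9 was as far below 0 as PSMB6, but above 0 under quantile normalization (0.12) and relative to the signal curve (0.05). The software error of PSMB8, 0.29, was larger than its ratio of 0.21. On the authors' brightness values, which were not background-subtracted, the log2 ratio of PSMB8 was -0.01. The proteasome activator subunit PSME1 gave 15199 and 13276 on a bright probe (-0.23) and 23.0 and 23.5 on a faint one (-0.0043). The bright PSME1 probe was above 0 under quantile normalization (0.13) and relative to the curve (0.09). PSME2, its partner, gave 13.7 and 17.8, dim on both arrays, and has no ratio.

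**Figure D3:**
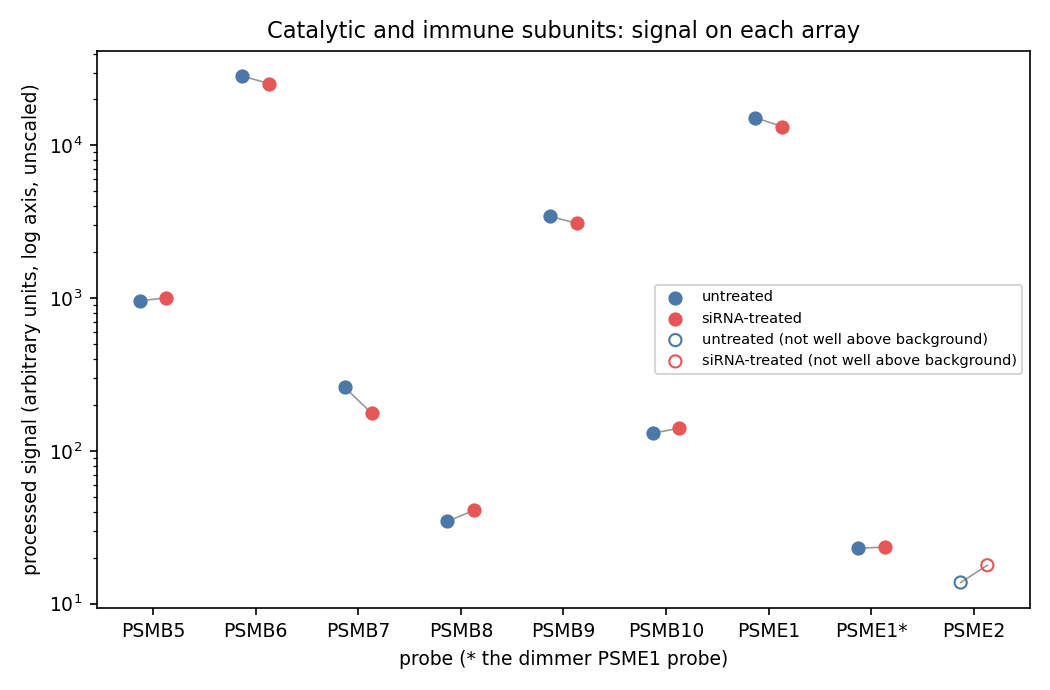
Processed signal on each array (arbitrary units, log axis, not scaled between arrays) of the probes for the catalytic subunits PSMB5 to PSMB7, the immune subunits PSMB8 to PSMB10 and the activator subunits PSME1 and PSME2; lines join the untreated (blue) and siRNA-treated (red) array, and open symbols were not well above background. PSMB7 has the steepest line of the measured probes (260 to 177), PSMB5, PSMB8, PSMB10, the faint PSME1 probe and PSME2 slope upward on these unscaled signals, and PSME2 is open on both arrays.

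All 9 measured ATPase probes of the base, which unfold the substrate, were lower on the siRNA-treated array (median -0.39, range -0.70 to -0.14), and all 9 also lay below the signal curve (median -0.29 from it). The median was -0.23 under quantile normalization. These probes are of 5 genes, with 3 each of PSMC1 and PSMC6. Under normexp with an offset of 50, PSMC2 was above 0 (0.09), and under the refitted normexp it was below 0 (-0.10). PSMC4 gave 4029 without and 2857 with the siRNA (log2 ratio -0.53). PSMC3 gave 653 and 465 (-0.53), and PSMC2 gave 33.9 and 29.9 (-0.22). The ATPases were lower in each brightness band. PSMC5 was dim on both arrays, at 8.53 and 6.26.

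PSMC6 has 4 probes on the array, more than any other subunit gene, and they read 4 places along 1 transcript on chromosome 14 (hg17, plus strand). They are given because they show how far probes of 1 ATPase gene differ, in the order of their targets.
PSMC6 probe a, chr14:52255492-52257373: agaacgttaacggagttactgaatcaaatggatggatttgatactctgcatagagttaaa
PSMC6 probe b, chr14:52257595-52257654: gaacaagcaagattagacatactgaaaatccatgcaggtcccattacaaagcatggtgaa
PSMC6 probe c, chr14:52260473-52263994: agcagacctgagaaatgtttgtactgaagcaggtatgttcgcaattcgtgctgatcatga
PSMC6 probe d, chr14:52264017-52264076: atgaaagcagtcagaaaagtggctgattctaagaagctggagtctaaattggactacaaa
Probe a gave 1519 without and 959 with the siRNA (log2 ratio -0.70), probe c 21625 and 16940 (-0.39) and probe d 86.4 and 67.5 (-0.39). Probe b gave 25.3 and 21.2, was well above background on the untreated array only, and is not counted as measured. Its log2 difference of -0.29 was smaller than its software error of 0.44. The 3 measured probes were lower, with the ratios of probes c and d differing by 0.0028 in spite of unequal brightness. That closeness was not kept under other settings. Probes c and d were at -0.02 and -0.38 under quantile normalization and at -0.05 and -0.37 relative to the signal curve. On the authors' brightness values they were at -0.40 and -0.18.

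PSMC1 had 3 measured probes. The pair that shares 50 bases gave 177 and 165 (log2 ratio -0.14) and 147 and 137 (-0.14), and a probe elsewhere in the gene gave 187 and 132 (-0.54). The probes with shared sequence thus had ratios that differed by 0.0005, and the probe elsewhere lay 0.40 below them.

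The remaining base subunits, which hold ubiquitin receptors and scaffolds, were nearer 0, with a median of -0.17 over 4 probes that turned to 0.02 under quantile normalization. The ubiquitin receptor PSMD4 gave 1783 without and 1537 with the siRNA (log2 ratio -0.25). The scaffold subunit PSMD2 gave 497 and 461 (-0.14). PSMD1, the other large scaffold, gave 2651 and 2374 (-0.19) on one probe and 222 and 268 (0.24) on the other. The brighter PSMD1 probe was above 0 under quantile normalization (0.06) and relative to the signal curve (0.02). The value of 0.24 on the other probe is the highest ratio of all measured proteasome probes, and that probe lies in a corner of the array described below. A second PSMD4 probe was dim on both arrays.

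The lid subunits differed widely among themselves, with 7 of 10 probes below 0 and a median of -0.17 that turned to 0.03 under quantile normalization and was -0.0040 relative to the signal curve. PSMD14, the enzyme that cuts ubiquitin off the substrate, gave 996 without and 648 with the siRNA (log2 ratio -0.66), the lowest of the lid. Of the structural lid subunits, PSMD6 gave 16284 and 12107 (-0.46), PSMD13 gave 5010 and 4047 (-0.34), and PSMD11 gave 7300 and 6653 (-0.17). PSMD14 was the farthest of these from the signal curve, at -0.57. PSMD7, which pairs with PSMD14, gave 195 and 205 (0.04), and PSMD8 gave 37.2 and 40.5 (0.09). PSMD3 gave 22.7 and 26.2 (0.18) on a faint probe and 2472 and 2237 (-0.18) on a bright one. PSMD7 and PSMD8 lay within the technical SD. The PSMD3 probes lay outside it in opposite directions, but each by less than its software error (0.35 faint, 0.20 bright). That difference in sign was not kept: both PSMD3 probes were above 0 under quantile normalization (0.19 and 0.07) and relative to the signal curve (0.14 and 0.03), and both were below 0 under the refitted normexp (-0.04 and -0.21). PSMD11 was above 0 under quantile normalization (0.18) and relative to the curve (0.12).

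PSMD12, another lid subunit, is 1 of 2 genes whose measured probes differed by 0.5 or more. Its 2 probes overlap on chromosome 17 (hg17, minus strand), and the capitals mark the 40 bases they share.
PSMD12, chr17:62767568-62767627: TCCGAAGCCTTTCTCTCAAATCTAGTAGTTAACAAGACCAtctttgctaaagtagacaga
PSMD12, chr17:62767588-62768780: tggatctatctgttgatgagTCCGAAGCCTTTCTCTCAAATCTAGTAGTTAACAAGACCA
The first gave 189 without and 127 with the siRNA (log2 ratio -0.61), and the second gave 54.4 and 53.5 (-0.06). Their ratios differed by 0.55 although they share most of their sequence. The technical SD of 0.14 is that of 1 ratio, and the software errors of these ratios were 0.21 and 0.24.

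The activators other than PSME1 and PSME2, with the inhibitor PSMF1, had a median of -0.21 over 5 measured probes. PSME3, which forms a nuclear activator ring, is the other gene whose probes differed by 0.5 or more. The probe below 0.55 lies upstream of the other PSME3 probes and is shown because it has the lowest ratio of the set.
PSME3, chr17:38240066-38240319, plus strand: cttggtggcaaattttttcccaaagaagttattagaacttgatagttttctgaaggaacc
It gave 368 without and 204 with the siRNA (log2 ratio -0.89), and sits in the first column of the array at row 253. The other PSME3 probes gave 126 and 115 (-0.16) and 45.7 and 40.4 (-0.21). All 3 probes were thus lower, but the others by far less. PSME4, a single-chain activator, gave 305 and 318 (0.03), and PSMF1 gave 294 and 256 (-0.23).

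The chaperones that assemble the base, which leave the finished particle, were near or above 0 for 3 of 4 probes, with a median of 0.06 that turned to -0.30 under that normexp correction. PSMD5 gave 77.2 without and 82.6 with the siRNA on one probe and 192 and 205 on the other, with log2 ratios of 0.06 for both. PSMD10 gave 249 and 274 (0.10). PSMD9 was the exception, at 1831 and 1352 (-0.47), and it lies in the corner described below. Second probes of PSMD9 and PSMF1 and the probe of PSMC3IP were dim on both arrays.

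Among the 11 genes with several measured probes, the ratios of a gene spanned a median of 0.31. A span holds the error of each of its probes (software error of 0.20 to 0.38), so it cannot be set directly against the technical SD. For 8 of the 11 the brightest probe had the lowest ratio, and for 8 all probes were below 0. The same counts over all genes with several probes were not made. The value printed for a gene thus depended on the probe that stood for it, and whether by more than error was not tested.

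**Figure D4:**
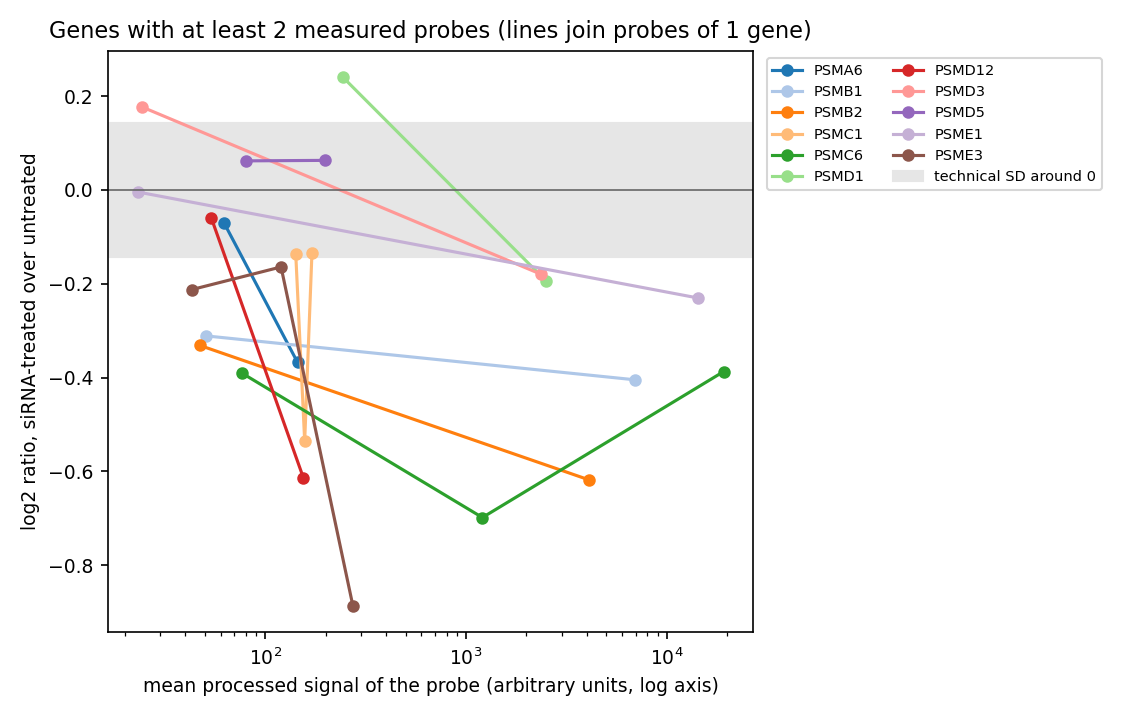
Log2 ratio (siRNA-treated over untreated) against mean processed signal (arbitrary units, log axis) for the 11 proteasome genes with several measured probes, with lines joining the probes of 1 gene and the technical SD of 0.14 around 0 in gray. Most lines run downward to the right, as the brightest probe had the lowest ratio in 8 of 11 genes, and PSME3 and PSMD12 span 0.72 and 0.55.

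The values were also read by position on the array. In a corner from row 355 to 532 and column 43 to 85, 7 measured proteasome probes had a median of -0.46 (6 below 0). The 47 probes outside it had a median of -0.20 (36 below 0). The share below 0 of all measured probes in the corner was not counted. Among the 7 are bright probes of PSMA3, PSMB2, PSMD6 and PSMD9, and position was not separated from brightness. Around each proteasome probe, the median log2 ratio of its 44 to 92 neighbours lay between -0.16 and 0.26. Both ends of that range belong to probes in the corner, PSMD9 (-0.16) and PSMB2 (0.26). With the local median of each probe subtracted, the proteasome median was -0.20 and 42 of 54 probes were below 0, as many as without it. PSMB3 and PSMB2 lay where the neighbours were higher on the siRNA-treated array, and their ratios were -0.95 and -0.88 after that subtraction. Together with PSME3 (-0.96) they then gave 3 probes below a ratio of 0.55. The part of array position in the proteasome values was otherwise not tested.

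**Figure D5:**
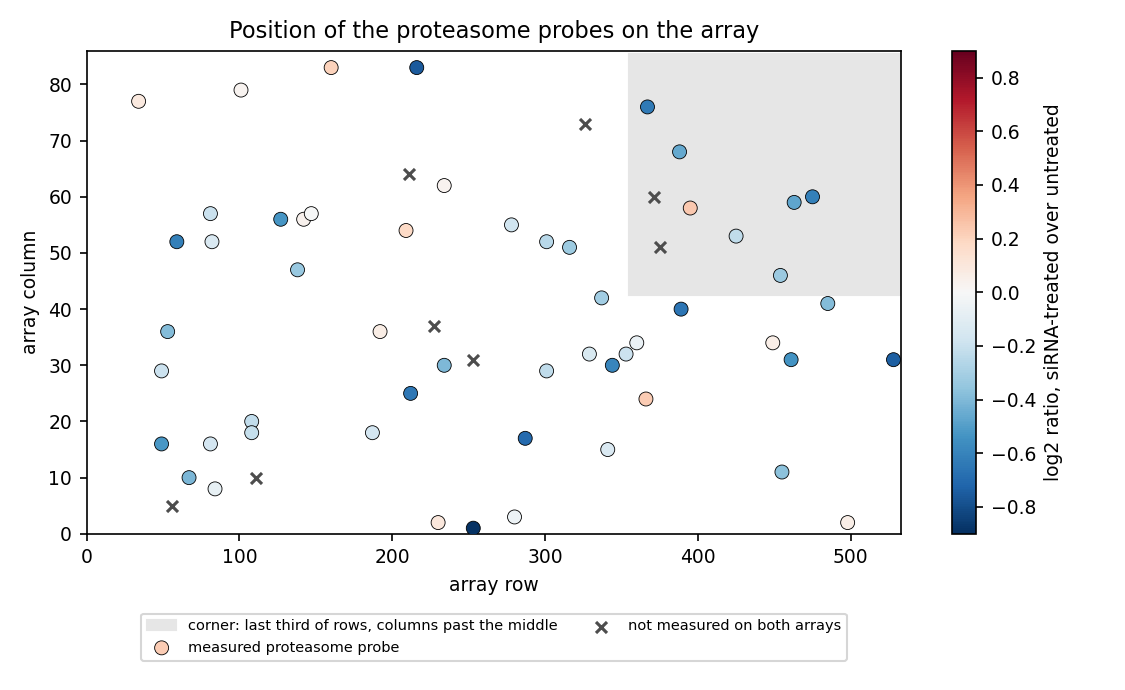
Position of the 62 proteasome probes by array row and column, coloured by log2 ratio (siRNA-treated over untreated; blue lower, red higher), with crosses for probes not measured on both arrays and the corner shaded gray. Lower probes are spread over the whole array; the 7 measured probes in the corner have a median of -0.46, the 47 outside it -0.20.

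Genes that work with the proteasome were read from a list of 33, of which 31 were on the array with 51 measured probes. Their median log2 ratio was -0.16, beside -0.03 over all measured probes. Below 0 were 37 of 51 (72.5%), beside 55.2% of all measured probes and 78.3% of the bright ones. None was past a ratio of 2.0 or 0.5, and 2 were below 0.55 (3.92%, beside 1.5% of all). The list called partners and assembly was the lowest of the 4 lists, at a median of -0.27 over 12 probes (8 below 0, 66.7%). The subunit groups above hold only genes that the naming rule reached. Above 0 in that list were probes of USP14 (0.16), SHFM1 (0.15), UBE3C (0.08) and TNFSF5IP1 (0.13). KIAA0368, an older symbol of ECPAS, which binds proteasomes as a scaffold, gave 83.9 without and 43.4 with the siRNA (-0.99), and its probe lies in the corner. UCHL5, a deubiquitinase bound to the base, gave 149 and 82.2 on one probe (-0.89). Its other probe, printed 10 times per array, gave 9116 and 5861 with a mean log2 ratio of -0.67 ± 0.08 (SD over the 10 spots, range -0.79 to -0.55), and all 10 spots were lower. Both probes of UCHL5 were thus lower by more than the technical SD. POMP, the chaperone that helps the core mature, gave 1658 and 975 (-0.80). DSCR2 and TNFSF5IP1 are older symbols of the core assembly chaperones PSMG1 and PSMG2, which the naming rule did not reach. DSCR2 gave -0.26, and the other probe of TNFSF5IP1 gave -0.29.

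Ubiquitin genes and shuttle factors had a median of -0.16 (18 of 25 below 0, 72.0%). The highest was a probe of UBE1, the older symbol of the ubiquitin-activating enzyme UBA1, at 0.54, while its other probe was at -0.21. The transcription factors of proteasome genes had a median of -0.16 over 4 probes (3 below 0). NFE2L1, which drives proteasome genes when proteasome activity is low, gave -0.25, -0.07 and -0.58 on its measured probes, and NFE2L2 gave 0.30. Antigen processing and interferon genes had a median of -0.08 (8 of 10 below 0, 80.0%). Of these, B2M, the light chain of the class I molecules, was higher in each of its 10 spots, at 0.22 on average (range 0.05 to 0.36), while TAP1 was at -0.16 and IRF1 at 0.13.

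The promoters of the immune subunits were searched because these genes share an inducer. In the RefSeq promoters (GRCh38.p14, a window mostly before each start site), searched on both strands, the interferon-stimulated response element, read as GAAA, any 2 bases and GAAA again, stood in 6 of 38 proteasome genes with a promoter (15.8%) and in 4.38% of all genes (3.57% of all 35116 promoters). Of the 5 immune genes, 4 held it (PSMB8, PSMB10, PSME1 and PSME2), and PSMA4 and PSMB4 did too. The windows below show the match in capitals.
PSME2, chr14:24146614-24146653, minus strand, match 28 bases before the start: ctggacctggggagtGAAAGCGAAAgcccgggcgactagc
PSMB10, chr16:67936851-67936890, minus strand, match 21 bases before the start: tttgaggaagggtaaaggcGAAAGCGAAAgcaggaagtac
The letters TGACNNNGC, the core of the antioxidant response element that NFE2L1 and NFE2L2 bind, stood in 13 of 38 genes (34.2%) and in 16.1% of all genes (13.3% of all promoters). A match of letters is a description of the window, and binding was not measured.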

How the data were processed

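The authors scanned both arrays and deposited spot intensity values from Agilent Feature Extraction (9.5.3.1 in the file headers, 9.1 in the labels). The processed intensity is background-subtracted and not scaled between arrays. The series text names GeneSpring GX 7.3.1 for scaling and filtering. The authors' value table of the series held raw median intensity (99.2% of 41093 features within a rounding difference of 0.5 of it on each array, medians 120 and 123), whose further processing is not given in the sources used here; it served as an alternative. The deposited headers give probe positions on hg17.

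Control and outlier spots were left out, intensities were divided by each array's 50th percentile, scaled values below 0.01 were raised to 0.01, and logarithms to base 2 followed. A probe was measured where at least 50% of its spots were well above background on both arrays. In the main setting, ratios of other probes were not counted. Of 62 accessions, 61 were found in a RefSeq table (GRCh38.p14), all with the same symbol. The number of arrays limits the precision, and no test was run.

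Members, groups and lists were chosen with earlier results of these data known. By rule, values were given for the catalytic and immune subunits, the highest and lowest gene of each group, probes past a cutoff, genes whose probes differed by 0.5 or more and dim members; the other members and the associated genes with values were added for completeness. The values of 1 associated gene are not reported here. Local medians used probes within 5 rows and columns; the lowess span was 0.2. Alternatives were other scalings, normexp (offset 50), the authors' table, other filters, other probe rules, the corner left out and both corrections. The code was tested on simulated data. Python 3.11.15, numpy 2.4.6, pandas 2.3.3, statsmodels 0.14.6, matplotlib 3.10.9, R 4.3.3 and limma 3.58.1 were used.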

Additional observations from a re-analysis of the deposited data

How the results depend on the processing

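The proteasome median stayed below 0 under all settings tried, from -0.63 to -0.065, and 34 to 47 of 54 probes lay below 0 under the settings that kept all 54. The lowest count (63.0%, quantile normalization) stands beside 48.6% of all measured probes. The highest (87.0%, normexp with an offset of 50) stands beside 73.1% of them. Quantile normalization gave a median of -0.065 (core alpha -0.18, base ATPase -0.23) and turned base non-ATPase to 0.019 and the lid to 0.026; it also brought the median of all bright probes from -0.24 to 0.03. Normexp with an offset of 50 moved the median of all measured probes to -0.20 and that of bright ones to -0.87. Under it the proteasome median was -0.63, with core alpha at -0.89, core beta at -0.78, immune at -0.28, base ATPase at -0.63, base non-ATPase at -0.74, lid at -0.75, activators and inhibitor at -0.45 and assembly factors at -0.30, and 14 probes were at a ratio of 0.5 or less and 18 below 0.55. That fit included 1 spot dimmer than its local background. Without it the proteasome median was -0.18, and 0 probes were at a ratio of 0.5 or less or below 0.55. The groups were then at -0.39 (core alpha), -0.19 (core beta), -0.07 (immune) and -0.36 (base ATPase). The others were at -0.16 (base non-ATPase), -0.21 (lid), -0.12 (activators and inhibitor) and 0.03 (assembly factors). Subtracting the lowess curve, added after the data were seen, gave -0.23 for core alpha and -0.0040 for the lid. The 1 probe below 0.55 became 0 under quantile normalization, without scaling, with the refitted normexp and with the authors' table, and 3 after subtraction of the local median. Of the 39 probes beyond the technical SD, 7 changed sign under quantile normalization and 6 under the lowess correction (PSMB6, PSMB9, PSMD1, PSMD11, PSMD3 and PSME1 under both). The cause was not tested. No paired analysis was possible because each condition has 1 array, and for the same reason no array could be left out. Dim probes, 7 on both arrays and 1 on 1 array, limit what can be said of PSMA8, PSMC5 and PSME2.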
